A study of Mus musculus with 45 samples.

Results

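The mitochondrial ribosomal proteins were taken as every gene whose symbol reads Mrps or Mrpl followed by a number and at most 1 letter in the authors' table of normalized expression. There were 77 such genes, 29 with Mrps (small subunit) and 48 with Mrpl (large subunit) symbols, of 11900 genes in that table. Mitochondria carry their own ribosome, the mitoribosome, which translates the few proteins encoded in mitochondrial DNA, hydrophobic core subunits of the respiratory chain and of ATP synthase. Its rRNAs are transcribed inside the organelle, whereas every one of its proteins is encoded in the nucleus, made in the cytosol and imported, so the supply of mitoribosome proteins depends on nuclear transcription. Some of these proteins have a counterpart in the bacterial ribosome and others were acquired in the mitochondrial lineage. In macrophages, classical activation is known for a shift toward glycolysis with nitric oxide acting on the respiratory chain, and alternative activation for sustained oxidative metabolism.

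The measurement was RNA sequencing of bone marrow-derived macrophages from C57BL/6N mice of 6 to 10 weeks. Bone marrow cells were cultured for 6 days with the growth factor M-CSF, and the macrophages were then harvested and reseeded for polarization. The mice were engineered to express 1 of 3 human variants of FAMIN, the purine nucleoside enzyme encoded by *Lacc1*: *Famin* p.254I (the common non-risk form), *Famin* p.254V (the form that raises Crohn's disease risk) or *Famin* p.284R (the form that causes a monogenic inflammatory disease). No wild-type mice were among the libraries, so p.254I served as the reference. Cells were left unstimulated (M0), polarized with IFN-γ and LPS (M1) or polarized with IL-4 (M2). This gave 45 libraries in 9 groups of 5. The 3 cultures that share a genotype and a number were read as 1 mouse, which makes 15 mice. The labels do not say so outright, and every count of mice below rests on this reading. Expression was examined as CPM, a gene's reads relative to the size of its library, scaled between libraries by TMM, edgeR's correction for RNA composition, and a gene was called changed at an adjusted p under 0.05 in edgeR's quasi-likelihood test over 12905 genes.

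Total counts ran from 17239009 to 43740283 (median 27553642), of which the 77 genes held between 0.156% and 0.225%. The labelled polarizations were checked on their markers. *Cxcl9*, an interferon-γ-induced chemokine, had 979 CPM or more in every M1 library and 1.45 or less elsewhere, and *Arg1*, the arginase induced by IL-4, had 705 CPM or more in every M2 library. One M1 library, p.254I replicate 5, held 40.8 CPM of *Arg1* and 49.1 CPM of *Retnla*, where the other M1 libraries had at most 0.912 and 0.249. Without that mouse the calls among the 77 genes were 64 higher and 3 lower in M1 than M0, and 69 higher and 0 lower in M2 than M0. The 7 macrophage markers summed to 19546 to 33188 CPM in M0, 11223 to 15065 in M1 and 9583 to 13830 in M2. Stromal markers, 6 listed and 4 tested, summed to 17.1 to 89.6 CPM in M0, 6.70 to 20.8 in M1 and 9.53 to 32.96 in M2, with 4 lower in M1 and 3 in M2. Neutrophil markers, 7 listed and 6 tested, summed to 23.5 to 253, 35.8 to 114 and 14.7 to 68.1 CPM, with 3 lower in M1 and 4 in M2. The 7 proliferation markers summed to 474 to 896, 352 to 630 and 471 to 600 CPM, with 7 lower in M1, and 5 lower and 1 higher in M2. T cell, B cell, mast cell and erythroid lists summed to at most 11.8 CPM in any library. The part these cells or proliferation had in the results below was not tested, and in RNA from whole cultures a smaller number of cells of a type cannot be told apart from less RNA per cell.

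The starts of 68 of the 77 genes were found in RefSeq (GRCm38.p6), as 74 windows that run from 250 bases before to 50 bases after the start, and 4 short motifs were looked for on both strands. The motif of ETS factors such as GABP, searched as CGGAAGT, stood at a start of 17 of the 68 genes and of 7.20% of all 27025 genes with a window. The motif of nuclear respiratory factor 1, searched in its palindromic form with 1 free base, stood at 13 of the 68 (19.1%) against 5.19%, the motif of YY1, searched as AANATGGC, in 30.9% against 6.96%, and the E-box of *Myc* and related factors, CACGTG, in 7.35% against 8.09%. A gene with several starts was counted once. The YY1 letters contain ATG and can overlap a start codon, and the windows of all genes include noncoding ones. The stretches shown here stop where another annotated exon begins. They belong to 3 of the genes that moved most in M1 or M2 and hold an ETS motif (*Mrps27*, *Mrpl16*, *Mrpl52*), to the L7/L12 stalk gene *Mrpl12* with a nuclear respiratory factor 1 motif, and to *Mrps6* and *Mrpl50*, the genes that fell most in M1. Capitals mark the motif, each is read 5′ to 3′ on its gene's strand, and no motif among the 4 was found in the stretches of *Mrps6* and *Mrpl50*. *Mrpl48*, which also fell in M1, has an ETS motif at 1 of its starts. *Mrps16* and *Mrps2*, which rose in M1 and M2, have none of the 4. Whether a motif goes with the direction of change was not tested.
*Mrps27*, chr13:99344706-99344785, plus strand: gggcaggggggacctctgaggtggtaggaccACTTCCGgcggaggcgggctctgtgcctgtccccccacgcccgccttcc
*Mrpl16*, chr19:11770241-11770390, plus strand: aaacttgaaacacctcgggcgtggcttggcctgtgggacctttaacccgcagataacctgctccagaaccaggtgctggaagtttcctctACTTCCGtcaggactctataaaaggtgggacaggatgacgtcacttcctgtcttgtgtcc
*Mrpl52*, chr14:54426759-54426908, plus strand: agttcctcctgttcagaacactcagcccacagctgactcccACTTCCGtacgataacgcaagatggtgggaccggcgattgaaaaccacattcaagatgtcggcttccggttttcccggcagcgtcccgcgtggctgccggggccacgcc
*Mrpl12*, chr11:120484463-120484612, plus strand: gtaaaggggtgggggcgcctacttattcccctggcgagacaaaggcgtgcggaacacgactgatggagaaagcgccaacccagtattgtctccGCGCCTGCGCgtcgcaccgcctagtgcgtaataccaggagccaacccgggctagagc
*Mrps6*, chr16:92058120-92058269, plus strand: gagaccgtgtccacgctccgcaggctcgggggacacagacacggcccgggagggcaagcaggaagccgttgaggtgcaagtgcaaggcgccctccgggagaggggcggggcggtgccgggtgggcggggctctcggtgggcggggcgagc
*Mrpl50*, chr4:49521094-49521175, minus strand: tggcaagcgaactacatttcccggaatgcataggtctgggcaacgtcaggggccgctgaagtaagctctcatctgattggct

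To ask how the mitoribosome as a whole responded to polarization, the CPM of the 77 genes were first summed in each library. The sum was 1615 ± 61.7 CPM in M0, 2100 ± 62.6 in M1 and 2076 ± 116 in M2 (SD, n = 15 each). The highest M0 library stood at 1714, below the lowest M1 library at 1969 and the lowest M2 library at 1865. Within a mouse the M1 to M0 ratio was 1.30 ± 0.056 (SD, range 1.23 to 1.41) and the M2 to M0 ratio 1.29 ± 0.084 (1.18 to 1.47), above 1 in 15 of 15 mice for both. The M1 to M2 ratio was 1.01 ± 0.066 (0.869 to 1.12), above 1 in 11 of the 15.

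Both subunits took part. Small-subunit symbols summed to 539 ± 21.1 CPM in M0, 689 ± 17.1 in M1 and 695 ± 38.0 in M2. Large-subunit symbols summed to 1076 ± 41.8, 1411 ± 48.3 and 1381 ± 78.2. The M1 to M0 ratio within a mouse was 1.28 ± 0.056 for the small and 1.31 ± 0.058 for the large symbols. The M2 to M0 ratio was 1.29 ± 0.082 and 1.29 ± 0.087. Small and large sums come from the same libraries, so these SDs between mice do not give the spread of the difference between subunits. These ratios were not tested, since the sums are over chosen genes.

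**Figure D1:**
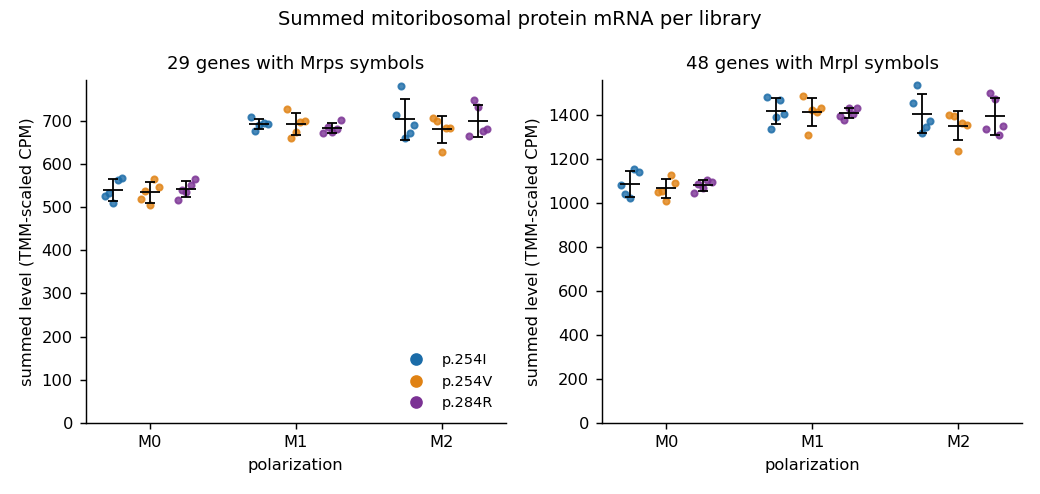
Summed TMM-scaled CPM of the 29 Mrps (left) and 48 Mrpl genes (right) in each library, by polarization (x axis) and Famin genotype (color), with the mean and SD of 5 mice. Every M1 and M2 library lies above every M0 library for both subunits, and the genotypes overlap.

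Gene by gene, M1 polarization raised 65 of the 77 genes and lowered 3, against 37.0% of all genes tested called higher and 40.3% called lower (77.3% in either direction). The median log2 fold change of the 77 was 0.35, beside -0.03 over all genes. The 15 M1 levels lay wholly above the 15 M0 levels for 37 of the 77 (48.1%, against 15.2% of all genes), and 52 were higher in each of the 15 mice (67.5%, against 24.2%). By subunit, 23 of 29 small and 42 of 48 large symbols rose, with medians of 0.33 and 0.36. The changes were mostly under 2-fold, and 3 genes passed that size.

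The largest rise was that of *Mrpl47* (ENSMUSG00000037531, chr3:32725397-32737605), the counterpart of bacterial L29. It had 7.15 to 9.54 CPM in M0 (median 8.22), 15.4 to 23.1 in M1 (21.1) and 10.2 to 14.9 in M2 (12.6). The 3 ranges did not overlap, and M1 was the highest in every mouse. In edgeR the log2 fold change from M0 to M1 was 1.32 ± 0.055 (SE, adjusted p = 6.2e-24), a 2.49-fold rise. The gene shares exon sequence on the opposite strand with *Ndufb5* and *Actl6a*, which rose by 0.79 and 0.67 on the log2 scale in M1, and since the use of strand in counting is not stated, the part of those genes in its value was not tested.

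*Mrps27* (ENSMUSG00000041632, chr13:99344786-99415562) makes a small-subunit protein with RNA-binding pentatricopeptide repeats. It had 14.6 to 18.5 CPM in M0 (median 16.3), 30.5 to 39.4 in M1 (34.9) and 22.2 to 30.5 in M2 (24.5). The 3 ranges did not overlap, with M2 between the others. The rise from M0 to M1 was 1.10 ± 0.051 on the log2 scale (edgeR adjusted p = 2.2e-22).

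*Mrpl16* (ENSMUSG00000024683, chr19:11770391-11774960), whose bacterial counterpart helps form the site where aminoacyl-tRNA enters, had 14.0 to 18.6 CPM in M0 (median 16.2), 25.7 to 44.0 in M1 (32.8) and 19.3 to 26.0 in M2 (22.8). M1 lay clear of M0 and overlapped M2 slightly, although it was the higher in every mouse. Its log2 fold change in M1 was 1.05 ± 0.053 (edgeR adjusted p = 3.5e-21). Next came *Mrpl42*, a mitochondria-specific large-subunit protein, at 0.87 ± 0.054, and *Mrpl55*, the counterpart of bacterial L31, at 0.81 ± 0.048. *Mrpl42* ran from 20.4 to 32.0 CPM in M0 and from 37.8 to 54.0 in M1, and *Mrpl55* from 9.33 to 12.4 and from 16.1 to 20.8, so neither overlapped.

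The 3 genes that fell in M1 were *Mrps6*, *Mrpl50* and *Mrpl48*, and each of them rose in M2. *Mrps6* (ENSMUSG00000039680, chr16:92058270-92112227), a small-subunit protein with a bacterial counterpart, had 6.77 to 11.3 CPM in M0 (median 8.57), 4.20 to 5.95 in M1 (5.11) and 8.32 to 12.3 in M2 (10.9). M1 lay below both other states without overlap. The fall in M1 was -0.80 ± 0.068 on the log2 scale and the rise in M2 0.28 ± 0.066 (edgeR adjusted p = 6.6e-14 and 2.0e-04). *Slc5a3*, the inositol transporter, starts 14 bases from *Mrps6* on the same strand and shares exon sequence with it. *Slc5a3* went from 2.18 to 5.17 CPM in M0 to 0.426 to 1.64 in M1 and 2.59 to 4.80 in M2, with a log2 fold change of -1.90 in M1 and 0.06 in M2. How reads of the shared exons were divided between these genes is not stated, so the value of *Mrps6* is uncertain to that extent.

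*Mrpl50* (ENSMUSG00000044018, chr4:49512596-49521093), a mitochondria-specific large-subunit protein, had 20.0 to 26.7 CPM in M0 (median 22.8), 17.1 to 22.6 in M1 (19.0) and 29.2 to 38.1 in M2 (34.8). It was lower in M1 than M0 in 15 of 15 mice although the ranges overlapped, and M2 lay above both. The log2 fold changes were -0.26 ± 0.046 in M1 and 0.56 ± 0.046 in M2 (edgeR adjusted p = 3.8e-06 and 2.9e-14). *Mrpl48*, also mitochondria-specific and with a named pseudogene elsewhere, changed by -0.16 ± 0.041 in M1 and 0.19 ± 0.041 in M2, and it was lower in M1 than in M2 in every mouse.

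**Figure D2:**
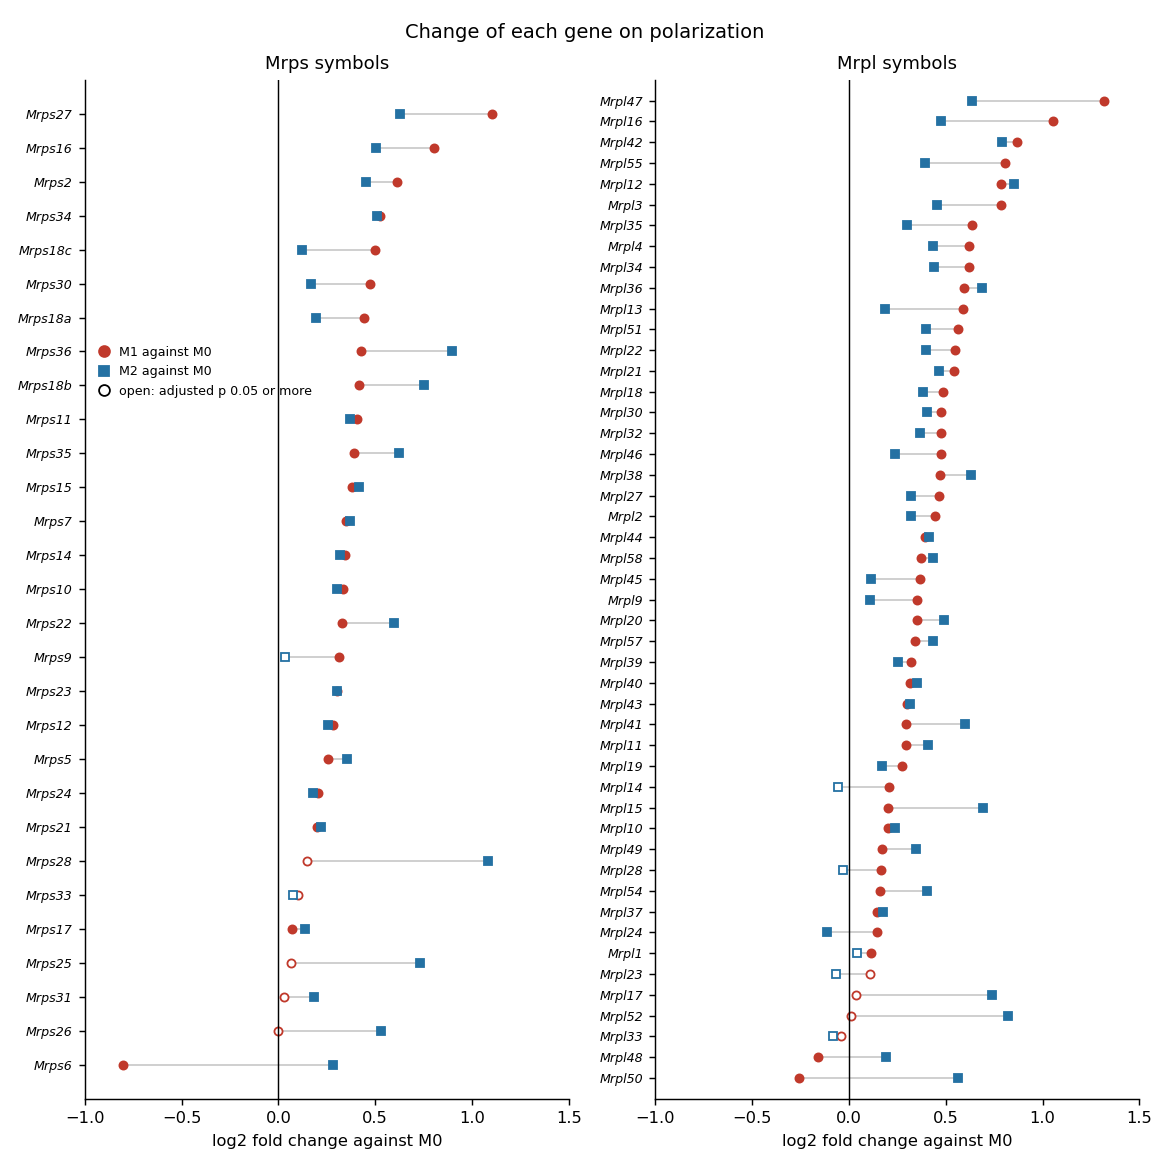
Log2 fold change of each of the 77 genes from M0 to M1 (red circles) and from M0 to M2 (blue squares), small-subunit symbols on the left and large-subunit symbols on the right, ordered by the M1 value. Open symbols have an adjusted p of 0.05 or more. Most pairs lie right of 0, and the called values left of 0 are those of Mrps6, Mrpl50 and Mrpl48 in M1 and of Mrpl24 in M2.

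M2 polarization raised 69 of the 77 genes and lowered 1, against 36.8% of all genes called higher and 39.6% called lower (76.4% in either direction). The median log2 fold change was 0.37, beside -0.03 over all genes. Levels in M2 lay wholly above those in M0 for 35 genes (45.5%, against 13.6% of all genes), and 55 were higher in each of the 15 mice (71.4%, against 24.3%). By subunit, 27 of 29 small symbols rose and 0 fell, and 42 of 48 large symbols rose and 1 fell, with medians of 0.36 and 0.40.

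The largest rise was that of *Mrps28* (ENSMUSG00000040269, chr3:8802146-8923918), a small-subunit protein. It had 5.73 to 9.04 CPM in M0 (median 7.74), 6.43 to 11.5 in M1 (8.28) and 12.1 to 24.1 in M2 (14.5). M2 stood apart from M0 and from M1, which overlapped. The log2 fold change was 1.08 ± 0.089 in M2 and 0.15 ± 0.090 in M1 (edgeR adjusted p = 4.8e-14 and 0.14).

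*Mrpl52* (ENSMUSG00000010406, chr14:54426909-54429756), a mitochondria-specific large-subunit protein, was also highest in M2, with 13.5 to 17.8 CPM in M0 (median 15.9), 14.2 to 21.3 in M1 (15.4) and 18.8 to 43.4 in M2 (24.8). The M2 libraries were spread over a wide range, all above M0 and partly overlapping M1, and in every mouse M2 was the higher of these. Its log2 fold changes were 0.82 ± 0.090 in M2 and 0.01 ± 0.091 in M1 (edgeR adjusted p = 1.3e-10 and 0.93).

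*Mrpl12* (ENSMUSG00000039640, chr11:120484613-120489065) makes the L7/L12 protein of the flexible stalk that recruits translation factors and is also known to bind the mitochondrial RNA polymerase. It had 24.5 to 32.4 CPM in M0 (median 27.3), 43.3 to 54.1 in M1 (48.1) and 41.1 to 61.7 in M2 (48.6). Both polarized states lay above M0 and overlapped one another, at log2 fold changes of 0.85 ± 0.050 in M2 and 0.79 ± 0.050 in M1. *Mrpl10*, which holds L7/L12 on the ribosome, changed less, by 0.24 in M2 and 0.20 in M1, and *Mrpl11*, at the base of the stalk, by 0.41 and 0.29, both called in each state.

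*Mrpl42* was again among the largest rises, at 0.79 ± 0.054 in M2, with 37.7 to 46.7 CPM. *Mrps36*, named as a small-subunit protein but since placed with the 2-oxoglutarate dehydrogenase complex and with 3 named pseudogenes, had only 0.430 to 1.02 CPM in M0 and 1.07 to 1.99 in M2, a log2 fold change of 0.90 ± 0.098. The single fall in M2 was that of *Mrpl24*, a protein of the exit side of the large subunit, from a median of 52.8 CPM in M0 to 51.0 in M2 (log2 fold change -0.11 ± 0.050, edgeR adjusted p = 0.040). Over the other ways of fitting, its adjusted p ran from 5.0e-04 to 0.088, and the call was lost when any of 13 of the 15 mice was left out.

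Read across both polarizations, 60 of the 77 genes (77.9%) were higher in M1 and in M2 than in M0, against 17.1% of all genes tested. Both comparisons use the same M0 libraries. *Mrpl1*, *Mrpl14*, *Mrpl28* and *Mrps9* passed the test as higher in M1, at 0.11 to 0.31 on the log2 scale, and were not called in M2, at -0.06 to 0.04. *Mrpl17*, *Mrpl52*, *Mrps25*, *Mrps26*, *Mrps28* and *Mrps31* passed as higher in M2 (0.19 to 1.08) and were not called in M1, where they stood between -0.00 and 0.15. Each of these 6 was also lower in M1 than in M2 by the direct test. Of the first 4, *Mrpl14*, *Mrpl28* and *Mrps9* were higher in M1 than in M2 by that test and *Mrpl1* was not called (0.07, edgeR adjusted p = 0.20). *Mrpl23*, *Mrpl33* and *Mrps33* were called in neither. *Mrpl23*, a tunnel-exit protein, had only 0.325 to 1.42 CPM in M0 and a named pseudogene, *Mrps33* had 2.49 to 3.91 CPM, and *Mrpl33* had 17.6 to 33.4 CPM in M0, 22.8 to 28.8 in M1 and 19.5 to 29.1 in M2.

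**Figure D3:**
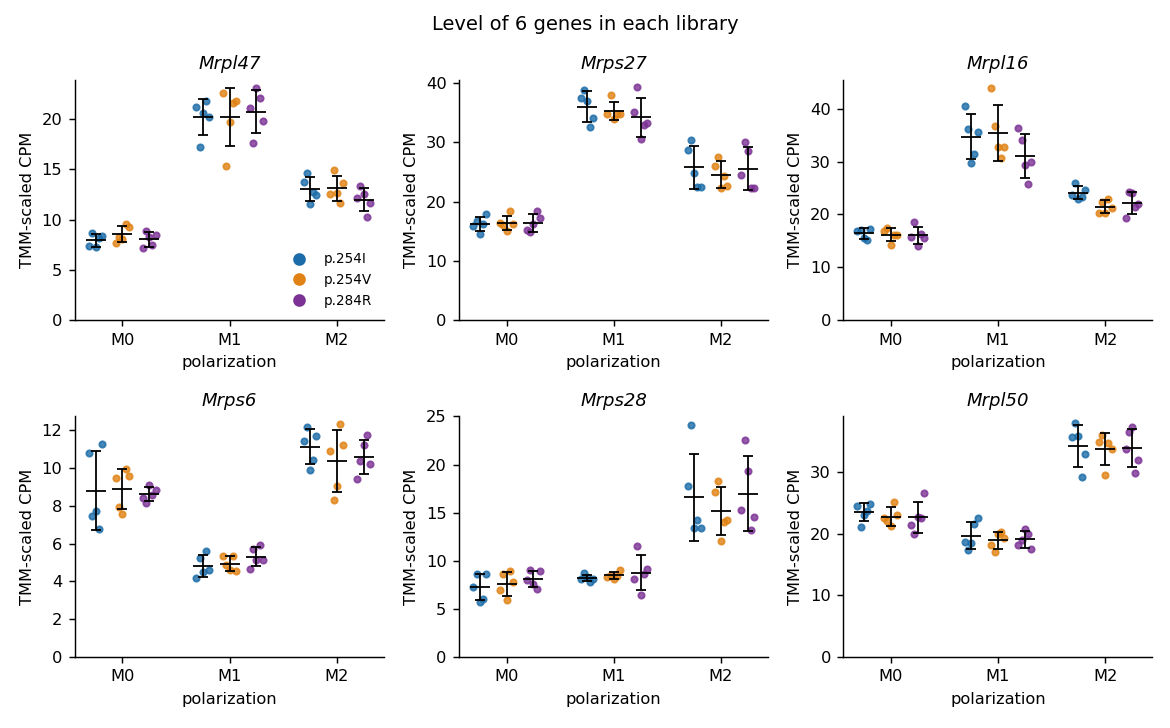
TMM-scaled CPM of 6 genes in each library, by polarization (x axis) and Famin genotype (color), with the mean and SD of 5 mice. Mrpl47, Mrps27 and Mrpl16 are highest in M1, Mrps28 and Mrpl50 are highest in M2, and Mrps6 is lowest in M1.

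M1 and M2 were also compared directly. In M1, 28 of the 77 genes were higher and 22 lower than in M2, against 39.0% and 40.1% of all genes (79.1% in either direction), with a median of 0.02 beside -0.01. Without TMM the split was 24 higher and 26 lower with a median of -0.01, so no direction can be given for the family as a whole. Ranges lay wholly apart for 5 genes higher in M1 (6.49%, against 17.6% of all genes) and 8 lower (10.4%, against 18.1%). The share called, in either direction and with ranges apart, was thus below that of all genes.

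The genes furthest toward M1 were *Mrpl47* (0.68 ± 0.054), *Mrpl16* (0.58 ± 0.052), *Mrps27* (0.48 ± 0.050), *Mrpl55* (0.41 ± 0.048) and *Mrpl13* (0.40 ± 0.035). *Mrpl13*, the counterpart of bacterial L13, had 22.5 to 27.8 CPM in M0, 35.2 to 43.4 in M1 and 27.2 to 31.8 in M2. The genes furthest toward M2 were *Mrps6* (-1.09 ± 0.068), *Mrps28* (-0.94 ± 0.089), *Mrpl50* (-0.82 ± 0.046), *Mrpl52* (-0.81 ± 0.091) and *Mrpl17* (-0.70 ± 0.046). *Mrpl17* (ENSMUSG00000030879), the counterpart of bacterial L17, had 23.6 to 28.1 CPM in M0, 22.8 to 30.3 in M1 and 37.6 to 51.4 in M2, so M2 alone stood apart. Each of these 5 was lower in M1 than in M2 in 15 of 15 mice. *Mrps25* and *Mrps26*, further mitochondria-specific small-subunit proteins, followed at -0.66 ± 0.057 and -0.53 ± 0.044.

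The genes were next divided by structural class, since a symbol does not always give the place of the protein. *Mrps18a* and *Mrps30* carry small-subunit symbols but sit in the large subunit. Of 15 small-subunit genes with a bacterial counterpart, 14 rose in M1 and 14 in M2 (medians 0.33 and 0.30), and *Mrps6* fell in M1. Of 11 mitochondria-specific small-subunit genes, 6 rose in M1 and 10 in M2 (medians 0.30 and 0.60). Of 30 large-subunit genes with a counterpart, 27 rose in M1 and 24 in M2, where *Mrpl24* fell (medians 0.47 and 0.39). Of 20 mitochondria-specific large-subunit genes tested, 17 rose and 2 fell in M1 and 20 rose in M2 (medians 0.33 and 0.37). All genes tested stood at 37.0% higher and 40.3% lower in M1, and 36.8% and 39.6% in M2.

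Between M1 and M2, where 39.0% of all genes were higher in M1 and 40.1% lower, the classes leaned differently. Large-subunit genes with a counterpart had 18 higher and 5 lower in M1 (median 0.13), and mitochondria-specific small-subunit genes had 1 higher, *Mrps27*, and 7 lower (median -0.23). Small-subunit genes with a counterpart had 4 higher and 2 lower (0.03), and mitochondria-specific large-subunit genes 5 higher and 7 lower (-0.03). *Mrps28* was listed as mitochondria-specific although current naming ties it to bacterial S1. With it moved, the mitochondria-specific small-subunit genes had 1 higher and 6 lower of 10 (median -0.19). The difference between classes was not tested.

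The 3 paralogs of bacterial S18 illustrate the classes. *Mrps18c*, the true counterpart in the small subunit, rose by 0.50 ± 0.044 in M1 and 0.12 ± 0.044 in M2. *Mrps18a*, in the large subunit, rose by 0.44 ± 0.036 and 0.20 ± 0.036. *Mrps18b*, elsewhere in the small subunit, rose by 0.42 ± 0.077 and 0.75 ± 0.076. In CPM, *Mrps18b* had 6.66 to 10.4 in M0, 8.31 to 14.3 in M1 and 9.89 to 18.7 in M2. By the direct test, *Mrps18a* and *Mrps18c* were higher in M1 than in M2 (0.25 and 0.38) and *Mrps18b* was lower (-0.34, edgeR adjusted p = 1.2e-04). *Mrps30*, the other large-subunit protein with a small-subunit symbol, rose by 0.47 in M1 and 0.17 in M2. *Mrpl45*, which tethers the ribosome to the inner membrane, rose by 0.37 and 0.11, and *Mrpl58*, a peptidyl-tRNA hydrolase built into the large subunit that can free stalled ribosomes, by 0.37 and 0.43.

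**Figure D4:**
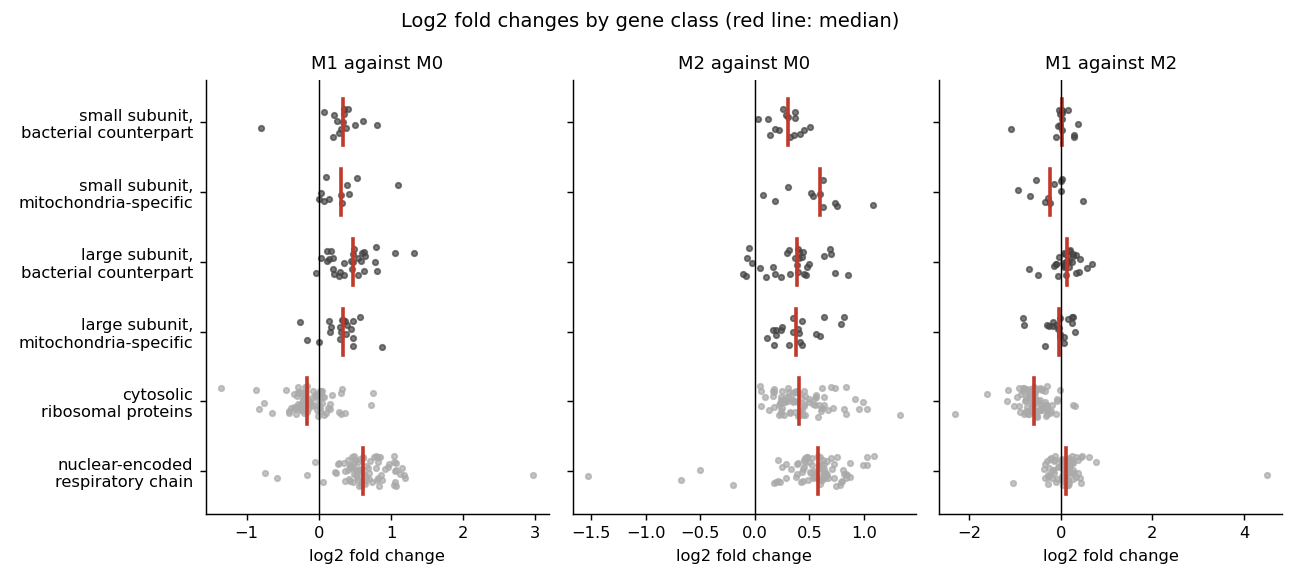
Log2 fold changes of 76 of the 77 genes by structural class (dark points, Mrps36 left out) beside cytosolic ribosomal proteins and nuclear-encoded respiratory chain genes (grey points), for M1 against M0, M2 against M0 and M1 against M2, each with its own x axis. Red lines are medians. In M1 against M0 the cytosolic ribosomal proteins center at -0.17 and the 4 mitoribosomal classes between 0.30 and 0.47.

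Levels were compared between genes per kilobase of annotated exon. The highest on this scale were *Mrpl34* with 24.8 CPM per kilobase in M0, 38.1 in M1 and 33.7 in M2, *Mrpl28* with 28.6, 32.0 and 28.0, and *Mrps23* with 24.5, 30.2 and 30.2. The lowest were *Mrpl23* (0.19 in M0), *Mrps36* (0.63) and *Mrps10* (1.40). The exon length joins all annotated transcripts, 8079 bases for *Mrps10* and 607 for *Mrpl34*, so a gene with a long rarely used exon ranks low. Replicates of a group differed with a coefficient of variation of 7.59% for the median gene, from 4.10% for *Mrps23* to 26.6% for *Mrpl23*. Counting without a stated strand touches many of the 77 genes, since 27 share exon sequence with a gene on the opposite strand and 7 with one on the same strand.

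The cytosolic ribosome, which makes the imported proteins, was measured in the same libraries. All genes tested stood at 37.0% higher and 40.3% lower in M1, and 36.8% and 39.6% in M2. Of 80 cytosolic ribosomal protein genes, 8 rose and 42 fell in M1 (median log2 fold change -0.17), whereas 71 rose and 0 fell in M2 (median 0.40). In M1 the largest falls were those of *Rpl10a* (-1.35) and *Rpl12* (-0.88), and the largest rises those of *Rps29* (0.75) and *Rpl23a* (0.73). Of 80 nuclear-encoded respiratory chain and ATP synthase genes, 74 rose and 3 fell in M1 (median 0.61) and 76 rose and 4 fell in M2 (median 0.58). *Cyc1*, cytochrome c1, rose by 1.19 in M1, and *Atp5b*, the catalytic subunit of ATP synthase, by 1.09 in M2. *Cox4i2* moved further, by 2.97 ± 0.324 in M1 and -1.53 ± 0.565 in M2, and *Cox7a1* fell by -0.75 in M1. Cytosolic ribosomal proteins have many processed copies in the genome, so single values of that list are uncertain.

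Of the 5 tested mitoribosomal proteins with other symbols, 4 rose and 1 fell in M1 and 5 rose in M2. *Chchd1* and *Dap3*, both of the small subunit, rose in M1 by 0.56 and 0.35, and *Ptcd3*, a pentatricopeptide repeat protein of the small subunit, fell by -0.12 ± 0.052 in M1 and rose by 0.46 ± 0.052 in M2 (edgeR adjusted p = 0.035 and 2.0e-10). Genes that assemble the mitoribosome or modify its rRNA split, with 13 of 31 higher and 8 lower in M1 and 13 higher and 3 lower in M2 (medians 0.10 and 0.08). Shares over all genes were 37.0% higher and 40.3% lower in M1, and 36.8% and 39.6% in M2. *Mpv17l2*, which helps join the subunits, rose by 0.93 and 0.82, and *Mrm3*, a methyltransferase of the large rRNA, by 0.60 and 0.66. *Mettl15* and *Rpusd3*, of the same list, fell in M1 by -0.46 and -0.40, and *Rbfa*, a maturation factor of the small subunit, fell by -0.40 in M2.

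Of 16 translation factors tested, 10 rose and 3 fell in M1 and 10 rose and 2 fell in M2 (medians 0.20 and 0.29). *Slirp*, an mRNA-stabilizing protein, rose by 0.91 in M1, and *Tsfm* and *Gfm1*, both elongation factors, by 0.66 and 0.63 in M2. *Guf1*, a ribosomal back-translocase, and *Mrrf*, the recycling factor, fell in M1 by -0.41 and -0.34. Of 19 mitochondrial aminoacyl-tRNA synthetases and related enzymes, 9 rose and 3 fell in M1 and 12 rose and 3 fell in M2. Beside both lists, all genes stood at 37.0% higher and 40.3% lower in M1, and 36.8% and 39.6% in M2. *Qrsl1*, a subunit of the amidotransferase that makes glutaminyl-tRNA, rose by 1.13 in M1 and 0.62 in M2. *Nars2*, for asparagine, fell by -0.71 in M1, and *Vars2* fell by -0.67 in M2.

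Of 17 genes for mitochondrial transcription and for its nuclear regulators, 6 rose and 7 fell in M1 and 9 rose and 1 fell in M2. Shares over all genes were 37.0% higher and 40.3% lower in M1, and 36.8% and 39.6% in M2. *Ppargc1b*, the coactivator PGC-1β known for driving mitochondrial gene programs, had 1.56 to 3.08 CPM in M0, 17.4 to 23.8 in M1 and 11.3 to 22.4 in M2. Both polarized states stood apart from M0, at log2 fold changes of 3.20 ± 0.090 and 2.91 ± 0.090. Its partner *Esrra*, an orphan nuclear receptor, rose by 0.97 in M1 and 0.48 in M2. *Max* rose by 1.01 in M1, and *Mterf2* fell by -0.66 ± 0.295 in M1 and -2.31 ± 0.368 in M2. *Myc* had 9.50 to 31.8 CPM in M0, 2.59 to 7.65 in M1 and 58.8 to 74.6 in M2, so the 3 states did not overlap, and it changed by -1.86 in M1 and 1.93 in M2. Of the factors named with the other motifs, *Nrf1* stood at -0.21 in M1 and -0.03 in M2, *Gabpa* at -0.18 and 0.06, and *Yy1* at 0.03 and -0.05. Of these, the M1 values of *Nrf1* and *Gabpa* passed the test. Values of other ETS factors are not given here, and binding of any factor to the motifs was not measured. *Esrra*, *Nrf1*, *Gabpa* and *Yy1* are named from the list for their motifs or partners, after their values were seen.

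To address whether the FAMIN variants changed the mitoribosome, each pair of genotypes was compared within each polarization and over the mean of the 3. Among the 77 genes 0 were called in any of these 12 edgeR comparisons, nor by DESeq2 or limma-voom. Over all genes the calls were also few, 0.263% for p.284R against p.254I in M1, 0.0775% for p.284R against p.254V in M1, 0.0155% for p.284R against p.254I and for p.254V against p.254I over the mean, 0.00775% for p.284R against p.254I in M2, and 0.0% in the other 7. At an unadjusted p under 0.05, between 0 and 4 of the 77 genes passed per comparison, against 53 to 864 of all 12905 genes. The 4 were reached for p.284R against p.254V in M1, beside 799 of all genes, and in M2, beside 310. Differences of the 77 genes ran from -0.26 to 0.30 on the log2 scale and none reached 1.5-fold. The median standard error was 0.045 for the mean over polarizations and 0.077 to 0.078 within one. For the mean, the 3 cultures of a mouse counted as separate, so 0.045 is not the spread between mice.

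Simulated counts had the same depth and spread, but every library was drawn independently, with nothing shared by a mouse or a replicate number. A change of 0.32 on the log2 scale was called in 26% of changed genes for p.284R against p.254I in M1. For the mean over polarizations it was called in 65.3%, a share that takes the cultures of a mouse as separate. The largest difference measured was 0.30 within a polarization and 0.136 over the mean. A 1.5-fold change was called in 64% and 89.6%. In the M1 simulation, 50 of 12672 genes carried the change of 0.32, 50 the 1.5-fold change and others larger ones. These were not the mitoribosomal genes as a set. The adjusted p also depends on how many genes change, and the measured genotype comparisons called few. The shares therefore do not show what could be detected for the mitoribosomal genes.

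The summed level of the 77 genes in M0 was 1625 ± 81.7 CPM in p.254I, 1599 ± 67.5 in p.254V and 1620 ± 40.5 in p.284R (SD, n = 5 each). In M1 it was 2107 ± 69.4, 2104 ± 88.2 and 2090 ± 29.7, and in M2 2107 ± 136, 2029 ± 96.7 and 2092 ± 121. In each polarization the 3 genotypes overlapped.

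The smallest unadjusted p in a single polarization belonged to *Mrpl39*, a mitochondria-specific large-subunit protein, and to *Mrpl28*, the counterpart of bacterial L28. In M1, *Mrpl39* had 26.2, 30.5, 31.8, 34.2 and 35.4 CPM in p.284R, 27.2, 25.1, 24.3, 28.4 and 30.1 in p.254V and 26.2, 27.1, 29.4, 30.1 and 30.3 in p.254I (replicates 1 to 5). The genotypes overlapped, and p.284R stood 0.23 ± 0.069 above p.254V on the log2 scale (edgeR adjusted p = 0.38). *Mrpl28* in M1 had 40.5, 45.3, 39.6, 38.8 and 40.2 CPM in p.284R, 46.7, 49.0, 45.3, 47.5 and 41.8 in p.254I and 46.6, 45.1, 44.4, 45.7 and 46.2 in p.254V. Of the 5 p.284R libraries 4 lay below every library of the other genotypes, and p.284R differed from p.254I by -0.17 ± 0.053 (edgeR adjusted p = 0.27) and from p.254V by -0.16 ± 0.053 (edgeR adjusted p = 0.54). Each of these genes passed the test in 1 of the 15 fits that left out a mouse, *Mrpl28* without p.284R replicate 2, against p.254I, and *Mrpl39* without p.284R replicate 1, against p.254V. *Mrps21*, a small-subunit protein with a bacterial counterpart, came next for p.284R in M1, at -0.18 ± 0.072 against p.254I (adjusted p = 0.54 by edgeR).

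In M2 the lowest unadjusted p belonged to *Mrpl55*, *Mrps18b* and *Mrpl38* for p.284R against p.254V (0.23, 0.30 and 0.21 on the log2 scale, edgeR adjusted p = 1.0 each) and to *Mrpl38*, *Mrpl44* and *Mrpl55* for p.254V against p.254I (-0.20, -0.15 and -0.16, adjusted p = 1.0 each). In M2, 56 of the 77 genes (72.7%, against 52.7% of all genes) had a positive difference of p.284R from p.254V, and 21 (27.3%, against 47.3%) of p.254V from p.254I. One M2 library, p.254V replicate 3, stood apart with a sum of 1865 CPM, and without that mouse these counts were 44 (57.1%, against 52.8%) and 30 (39.0%, against 45.7%). With all mice, the same counts were 52 and 27 in M0, 35 and 41 in M1, and 53 and 15 over the mean of polarizations. The medians were 0.016 and -0.020, -0.005 and 0.002, and 0.019 and -0.023. Over all genes the medians were 0.001 and -0.002, 0.0001 and 0.0006, and 0.002 and -0.004. Both comparisons share the p.254V libraries, so their counts are not separate signals, and the lean was not tested. In M0 the genes with the lowest unadjusted p were *Mrpl35* and *Mrps33*, at -0.22 ± 0.093 and -0.23 ± 0.117 for p.284R against p.254I, and *Mrps31* at -0.14 ± 0.074 for p.254V against p.254I.

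**Figure D5:**
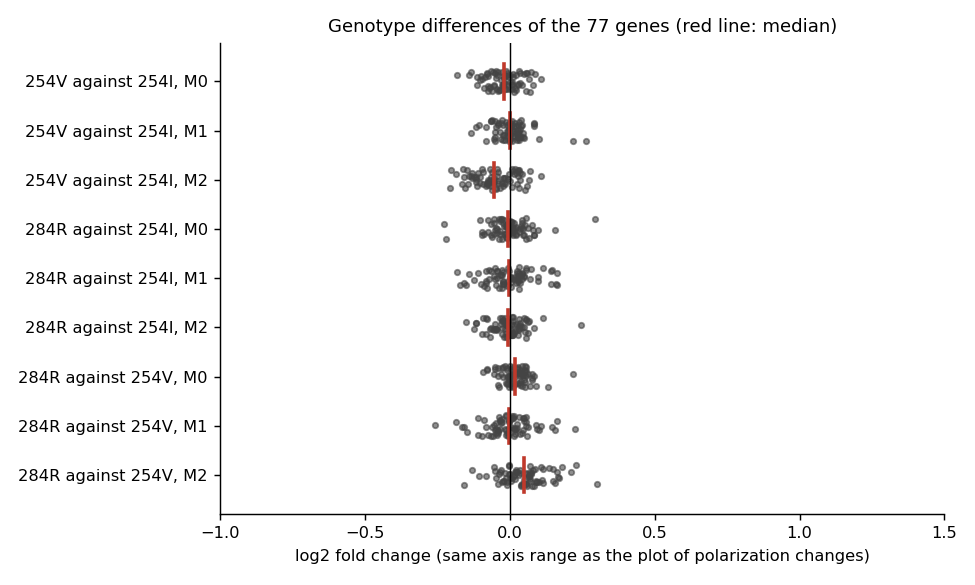
Log2 differences of the 77 genes between Famin genotypes within each polarization (points), with the median as a red line, on the axis range used for the polarization changes. The points lie between -0.26 and 0.30 and the medians between -0.05 and 0.05.

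The response to polarization was then set side by side in each genotype. In p.254I, 59 genes rose and 3 fell in M1 (29.1% and 30.9% of all genes) and 64 rose and 0 fell in M2 (30.0% and 30.6%). In p.254V, 60 rose and 2 fell in M1 (30.3% and 32.1%) and 61 rose and 0 fell in M2 (28.2% and 29.2%). In p.284R, 58 rose and 3 fell in M1 (31.0% and 32.4%) and 65 rose and 0 fell in M2 (29.7% and 30.2%). The medians were 0.34, 0.35 and 0.34 for M1 and 0.37, 0.36 and 0.39 for M2 on the log2 scale. Tests of whether the response differed between genotypes, 6 in all, called 0 of the 77 genes, against 0.0% over all genes. At an unadjusted p under 0.05, 0 to 2 of the 77 passed, against 70 to 356 of all 12905 genes. DESeq2 and limma-voom also called 0. The smallest p was that of *Mrpl39*, whose M1 response was larger in p.284R than in p.254V by 0.28 ± 0.098 (edgeR adjusted p = 1.0), followed by *Mrpl28*, where it was smaller by -0.21 ± 0.076 (edgeR adjusted p = 1.0).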

How the data were processed

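Per the labels, poly(A) RNA of bone marrow-derived macrophages was sequenced from strand-specific libraries. The authors deposited counts, whole reads per Ensembl gene for 29307 genes without normalization, and CPM for 11900 of them; each deposited CPM value is the count scaled to the library's total over that table, and reads recovered from it were whole for 100% of values (tolerance 0.01 reads). The submitters' processing notes name Trim Galore, HISAT2, limma and mm10, and the series text names Cutadapt and STAR; the counting tool, its annotation and its use of strand are not given in the sources used here. Coordinates came from GENCODE of the same assembly (29081 identifiers matched). One further symbol of the same form, *Mrpl53*, was in the count table only and was left out. Genes with symbols starting mt- held 0.0% of the counts in every library, so mitochondrially encoded genes could not be analysed here.

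Tests on the counts used edgeR 4.0.16 under R 4.3.3 (filterByExpr over the 9 groups, 12905 genes, among them all 77; TMM factors 0.939 to 1.10; glmQLFit, robust; Benjamini-Hochberg over all genes). DESeq2 1.42.0 and limma 3.58.1 were alternatives, with other scaling, no filter, the groups compared alone and each mouse left out. Fits were tested on simulated counts drawn independently for each library, where 88% of 1.5-fold changes were called for M1 against M0. The main fit had no mouse term, so its p-values measure the spread between the cultures of a group. Between polarizations, and over the mean of polarizations, cultures of 1 mouse counted as separate. That a genotype and number mark 1 mouse is read from the labels. Same-numbered libraries of different genotypes deviated together (correlation over 0.1 in 15 of 15 pairs in M0 and in M1, 13 of 15 in M2, over 8404 genes), and cultures of a mouse did in 37 of 45 pairs.

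Members, gene lists and structural classes were chosen with earlier results of these data known. Values are given for the 5 largest rises and falls per polarization comparison, the smallest unadjusted p per genotype comparison, genes called in neither polarization or in 1, genes with particular roles and the extremes per length. From companion lists, some of the 2 largest rises and falls are given, not all.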

Additional observations from a re-analysis of the deposited data

Results flagged for a closer look

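Of 27 groups of 5 libraries whose summed levels were examined, 2 held a library whose gap to the nearest other exceeded Dixon's 95% critical value of 0.71 of the group's range, where chance gives about 1 in 20. Both are the M2 library of p.254V replicate 3. Its 77 genes summed to 1865 CPM, against 2037 to 2107 in the other 4, and its large-subunit symbols to 1236 CPM, against 1354 to 1400. The sums share genes, so they are not separate signals.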

How the results depend on the processing

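The number of the 77 genes called in either direction stayed within 1.5 times the reported one under every alternative for the polarization comparisons, and 0 called values of single genes reversed. By direction, the 1 gene lower in M2 than M0 became 3 without TMM, and 0 without the filter or when any of 13 of the 15 mice was left out. Scaling to library totals without TMM mattered most. It moved the median of all genes in M1 against M0 from -0.03 to -0.13 and that of the 77 genes from 0.35 to 0.245, so that their distance stayed at 0.38. The summed level was then 1681 CPM in M0 and 2033 in M1, and the calls were 57 higher and 4 lower in M1, 64 and 3 in M2, and 24 and 26 in place of 28 and 22 for M1 against M2, whose median changed sign from 0.02 to -0.01. With each mouse left out in turn, the calls ranged from 66 to 68 for M1 against M0, 69 to 70 for M2 against M0 and 48 to 52 for M1 against M2. For p.284R against p.254I in M1 they ranged from 0 to 1 and for p.284R against p.254V in M1 from 0 to 1, and in the other genotype comparisons and interactions no alternative called a gene. The cause was not tested. With a fixed term for each mouse the calls were 65 higher and 3 lower, 69 and 1, and 27 and 22. With the mouse as a random effect they were 65 and 3, 69 and 1, and 28 and 23. Genotype comparisons were fitted with a term for the replicate number instead of the fixed mouse term. None of these fits changed a count by over 1.5 times. Reads recovered from the CPM table, an alternative chosen after seeing the data, gave 63 and 3, 69 and 1, and 27 and 22. Among single genes, 14 results crossed the threshold under some alternative, *Mrpl24* in M2 most often. Depth limits *Mrpl23*, *Mrps36* and *Mrps33*, which lie under 4 CPM.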
